A study of Mus musculus with 6 samples.

Results

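The CCN family of secreted matricellular proteins was followed in the peritoneum of C57BL/6J mice, comparing saline-treated animals with an injection model of EPS, short for encapsulating peritoneal sclerosis, in which fibrous tissue wraps the bowel. The members Ccn1, Ccn2, Ccn3, Ccn4 and Ccn5 were chosen by gene symbol, and all 5 were found among the 14943 genes of the deposited count table and passed the filter on low counts. Ccn6 was not analysed here. The 3 EPS libraries came from wild-type males aged 8 weeks that were injected into the abdomen every day with 100 mL/kg of 4.25% dialysis solution together with SHS (0.3 mL, named only by this abbreviation), and once a week with 4 mg/kg of the bacterial endotoxin LPS. The 3 control libraries came from wild-type males of the same age and strain injected with saline in equal volume. All mice were sacrificed in the 3rd week. The EPS mice received all agents together, so their separate effects cannot be told apart. The labels do not say whether each library came from a separate mouse, and p-values then measure only the spread between these libraries.

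CCN proteins are not structural parts of the matrix but bind integrins, proteoglycans and growth factors and so tune how cells respond to the matrix around them. They share an insulin-like growth factor binding module, a von Willebrand type C module and a thrombospondin module, and all except Ccn5 end in a cystine knot module. Ccn1 (formerly Cyr61) and Ccn2 (formerly Ctgf, connective tissue growth factor) are quickly induced genes that are textbook targets of the coactivators YAP and TAZ with TEAD factors, and Ccn2 is also induced by TGF-beta and linked to fibrosis. Ccn3 (formerly Nov) and Ccn5 (formerly Wisp2) often oppose Ccn2. Ccn4 and Ccn5 were first described as genes induced by Wnt1, and Ccn4 (formerly Wisp1) is linked to fibroblast activation.

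The promoter of Ccn1 is shown because Ccn1 is a classical TEAD target and TEAD pathway genes are described further on. RefSeq sequence was found for 1 of the 5 members. The 250 bases before its RefSeq start, at chr3:145649986-145650235 of GRCm38.p6 on the minus strand, are printed 5′ to 3′ with matches to searched motifs in capitals.
Ccn1: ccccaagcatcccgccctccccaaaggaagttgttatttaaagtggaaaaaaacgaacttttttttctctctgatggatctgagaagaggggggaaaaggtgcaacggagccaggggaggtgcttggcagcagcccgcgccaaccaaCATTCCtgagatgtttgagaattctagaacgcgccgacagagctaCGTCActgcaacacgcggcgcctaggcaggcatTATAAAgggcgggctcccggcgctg
Both strands were searched for 4 motifs, and no match overlapped another. The TEAD core CATTCC lies 103 to 98 bases before the start, and 12.6% of 32851 promoter windows of the same length hold it. The cyclic AMP response half-site TGACG matches on the opposite strand, 58 to 54 bases before the start (17.8% of windows). The TATA box TATAAA lies 25 to 20 bases before the start (12.4% of windows). The CArG box, the binding motif of serum response factor, has no match in this window and is held by 1.47% of windows. These matches describe letters only.

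Libraries held between 15419232 and 17684229 counts. EPS 1 stood apart: 14.96% of its counts fell on 10 exocrine pancreas genes, against 0.0219% to 0.333% in the other 5 libraries. Controls 1 and 2 were the most alike pair (mean chi-square per gene 4.41, against 15.9 and 16.4 for their pairs with control 3), and members are therefore also given with both summed as 1 sample and without EPS 1. As for the labelled tissue, mesothelial markers were detected in both groups, at summed levels of 132 to 208 CPM (read counts scaled to one library size) in controls and 44.3 to 367 in EPS. By edgeR 0 of the 9 were called, and 0 had an unadjusted p under 0.05. DESeq2 called 2 of them higher (the keratin genes Krt8 and Krt18, adjusted p = 0.0146 and 0.0161) and limma-voom 1 lower, Upk3b (-1.57, adjusted p = 0.0278). Upk3b was also called under the replicate block (-1.50, edgeR adjusted p = 0.0239) and without EPS 3 (-0.86, 0.00738), where 4 others were called higher, and with library totals Wt1 was higher. These markers are named after their values were seen. The highest sum, 367 CPM, was that of EPS 1, the library with the pancreas counts. Krt8 and Krt18 stood there at 86.3 and 106 CPM, against 32.8 and 23.8 in EPS 2 and 1.88 and 1.49 in EPS 3. Whether these keratin reads came from mesothelium was not tested. In bulk tissue, fewer cells of a type and less RNA per cell cannot be told apart.

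One CCN gene was higher in EPS and the rest of the family was at lower levels. Ccn4 rose 4.14-fold, while Ccn1, Ccn2 and Ccn5 fell by 2.14-fold, 2.51-fold and 2.33-fold. Ccn3 was 1.73-fold lower by estimate and did not pass the test. The 5 members thus gave 4 calls, 1 higher and 3 lower, in a comparison in which 59.6% of all 13980 tested genes were called, 29.2% higher and 30.4% lower. A count of 4 in 5 is near that background and is no result about the family. The CPM ranges of the groups did not overlap for any of the 5 members, a separation also seen for 68.5% of tested genes (33.1% higher and 35.4% lower in EPS). For Ccn3 and Ccn5 this separation depends on the TMM scaling. Their raw counts overlapped: Ccn3 had 603 in EPS 2 against 471, 537 and 476 in controls, and Ccn5 had 613 in EPS 3 against 486 in control 3. Raw counts of Ccn1, Ccn2 and Ccn4 did not overlap.

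**Figure D1:**
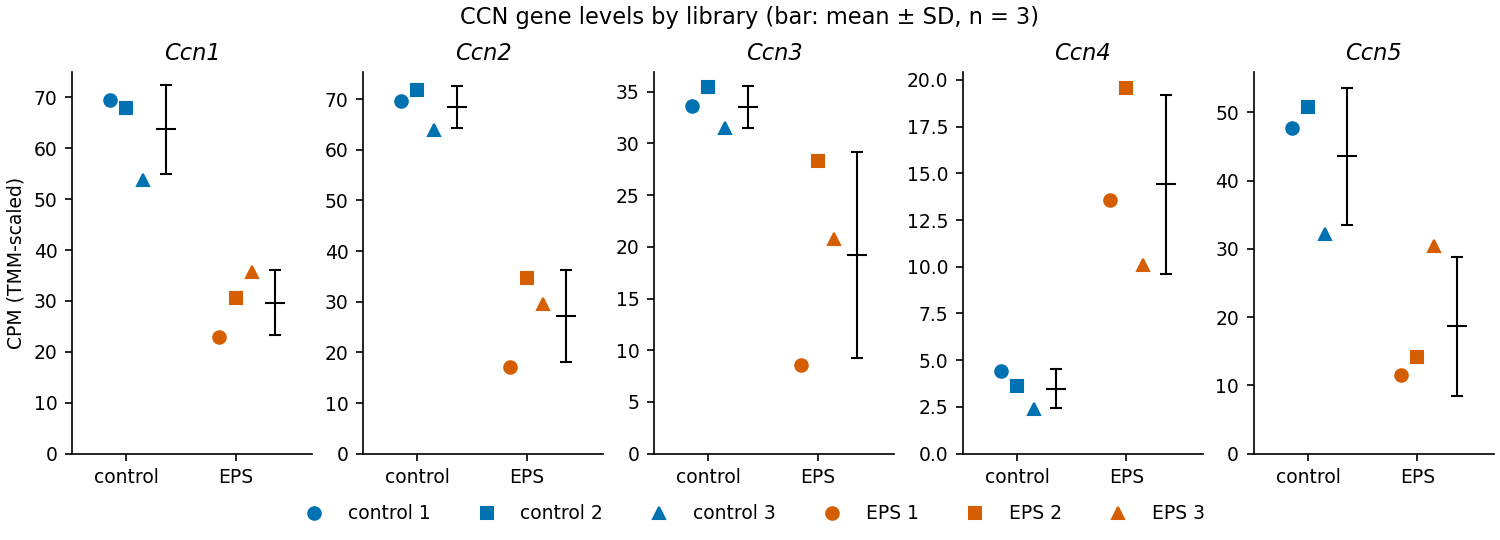
CPM (vertical axes, scaled by TMM factors, each panel with its own range from 0) of the 5 CCN genes in each library, with controls in blue, EPS in orange and a black bar for the mean ± SD of 3 libraries. Ccn4 lies above the controls in all 3 EPS libraries, and the other 4 genes lie below them, with EPS 1 lowest for Ccn1, Ccn2, Ccn3 and Ccn5.

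Ccn4 (ENSMUSG00000005124.10; chromosome 15, 66891320 to 66923201, plus strand) was the member that rose. Its raw counts in controls 1 to 3 were 62, 55 and 36, against 196, 416 and 204 for EPS 1 to 3. On the CPM scale it stood at 4.43, 3.63 and 2.38 in controls and at 13.6, 19.5 and 10.1 in EPS. The lowest EPS library was above the highest control, and EPS 2 was highest. The log2 fold change was 2.05 ± 0.32 (SE; 95% interval 1.31 to 2.79; edgeR quasi-likelihood adjusted p = 8.26e-04), and 89.5% of tested genes had a lower value. Without EPS 1 it was 2.15 (adjusted p = 7.81e-04), and with controls 1 and 2 summed and EPS 1 left out it was 2.71 (adjusted p = 0.0249). Ccn4 was called under all 16 alternatives, with a log2 fold change from 1.77 to 2.71.

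Ccn2 (ENSMUSG00000019997.11; chromosome 10, 24595442 to 24598683, plus strand), the family's profibrotic growth factor, fell. Controls 1 to 3 had 69.6, 71.8 and 63.9 CPM, a narrow range, against 17.1, 34.7 and 29.6 CPM for EPS 1 to 3. Every EPS library was well below the controls, and EPS 1 was the lowest. The log2 fold change was -1.33 ± 0.24 (95% interval -1.88 to -0.78; edgeR adjusted p = 0.00203). Without EPS 1 it was -1.02 (adjusted p = 1.19e-04). It was called under all 16 alternatives, and its value was -0.86 with library totals in place of TMM scaling (adjusted p = 0.0435).

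Ccn1 (ENSMUSG00000028195.4; chromosome 3, 145646976 to 145649981, minus strand), an angiogenic and cell adhesion factor of the same expression class, also fell. Controls 1 to 3 had 69.5, 67.99 and 53.7 CPM, and EPS 1 to 3 had 22.9, 30.5 and 35.7 CPM. The groups were apart, with control 3 the lowest control and EPS 3 the highest EPS library. The log2 fold change was -1.10 ± 0.18 (95% interval -1.51 to -0.69; edgeR adjusted p = 0.00104). Without EPS 1 it was -0.87 (adjusted p = 0.00138). With library totals it was -0.65 (adjusted p = 0.0478), and the call was lost with controls 1 and 2 summed and EPS 1 left out (-0.62, adjusted p = 0.111).

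Ccn5 (ENSMUSG00000027656.7; chromosome 2, 163820861 to 163833146, plus strand), the member without the cystine knot module, fell with the widest spread among the called members. Controls 1 to 3 stood at 47.8, 50.9 and 32.1 CPM, and EPS 1 to 3 at 11.6, 14.1 and 30.4 CPM. EPS 3 came close to control 3, while EPS 1 and EPS 2 were far below all controls. The log2 fold change was -1.22 ± 0.38 (95% interval -2.12 to -0.32; edgeR adjusted p = 0.0282). The call was lost under 8 of 16 alternatives, among them without EPS 1 (-0.89, adjusted p = 0.0980), without EPS 2 (-1.04, 0.0923), without control 1 (-1.15, 0.0768), without control 2 (-1.10, 0.0844), with library totals (-0.75, 0.188), and with controls 1 and 2 summed and EPS 1 left out (-0.46, 0.574). Without EPS 3 it was -1.76 (adjusted p = 6.20e-04).

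Ccn3 (ENSMUSG00000037362.8; chromosome 15, 54745702 to 54754039, plus strand) was not called. The level was 33.6, 35.5 and 31.5 CPM for controls 1 to 3, against 8.59, 28.3 and 20.8 CPM for EPS 1 to 3. Controls lay within a few CPM of each other, and EPS ranged from a small part of the control level in EPS 1 to almost the control level in EPS 2. The log2 fold change was -0.79 ± 0.38 (95% interval -1.69 to 0.10; edgeR adjusted p = 0.109), an interval that holds both no change and a decrease larger than that of Ccn2. Without EPS 2 the value was -1.18 and passed (adjusted p = 0.0275). Without EPS 1 it was -0.38 (0.0552), and with library totals -0.30 (0.617).

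**Figure D2:**
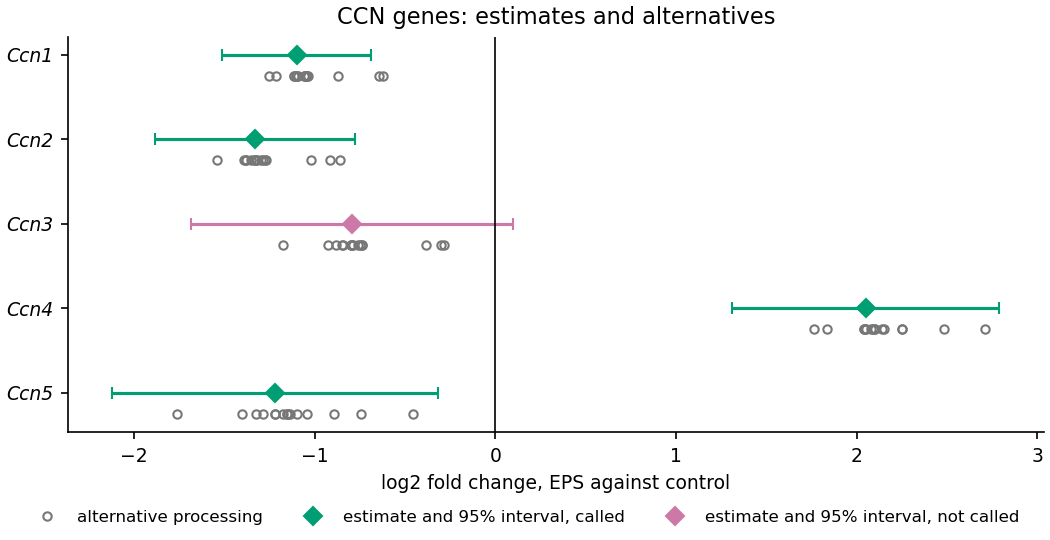
Log2 fold change of EPS against control (horizontal axis) for each CCN gene, with the edgeR estimate as a diamond, its 95% interval as a line, and the 16 alternative processing choices as open circles below it. Ccn4 lies above 0 and Ccn1, Ccn2, Ccn3 and Ccn5 below 0 under every alternative, and only the interval of Ccn3 crosses 0.

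The members also differed in how evenly they were expressed within a group. The coefficient of variation of Ccn3 was 5.97% in controls and 51.8% in EPS, and that of Ccn2 was 5.98% and 33.3%. Ccn5 varied in both groups, at 23.0% and 54.6%, and Ccn4 likewise, at 29.6% and 33.1%. Ccn1 was at 13.7% and 21.7%. The median over tested genes was 9.18% in controls and 16.7% in EPS. The EPS values of 3 members rest largely on EPS 1: over EPS 2 and EPS 3 alone, Ccn1 and Ccn2 were each at 11.1% and Ccn3 at 21.7%, against a median of 13.1%, with Ccn4 at 45.0% and Ccn5 at 51.8%. With 3 libraries a group, these values are descriptions and were not tested.

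Ratios within a library do not depend on scaling between libraries. The reads of Ccn4 per read of Ccn2 numbered 0.0636, 0.0506 and 0.0373 for controls 1 to 3, against 0.794, 0.564 and 0.341 for EPS 1 to 3. All 3 EPS libraries were far above all controls, and the log2 ratio was higher by 3.44 in EPS. The ratios of Ccn4 to Ccn1 and to Ccn3 were higher by 3.16 and 3.01, and that of Ccn5 to Ccn4 was lower, by -3.37 on the log2 scale. Each had an exact two-sided permutation p of 0.1, the smallest that 3 against 3 libraries allow, and 0.2 after Benjamini-Hochberg adjustment over the 10 pairs of members. Without EPS 1, the difference for Ccn4 to Ccn2 was 3.15.

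Among the 4 members at lower levels, the ratios mostly did not separate the groups. Ccn2 to Ccn1, the pair with shared regulators, was 1.00, 1.06 and 1.19 in controls and 0.749, 1.14 and 0.831 in EPS (log2 difference -0.28, exact permutation p = 0.3, adjusted 0.5). Ccn5 to Ccn2 differed by 0.07 (exact permutation p = 1) with control SD of 0.27 and EPS SD of 0.67 on the log2 scale. Ccn3 to Ccn2 was the exception. It was 0.483, 0.494 and 0.493 in controls and 0.502, 0.817 and 0.702 in EPS (log2 difference 0.43, exact permutation p = 0.1, adjusted 0.2), and EPS 1 lay just above the controls.

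The family's summed level was 225, 229.8 and 184 CPM for controls 1 to 3, against 73.7, 127 and 127 CPM for EPS 1 to 3. This separation of the groups depends on the TMM scaling. As CPM of the library totals, without TMM factors, the sum was 195.7, 196.7 and 161.0 in controls and 69.0, 162.5 and 161.1 in EPS, and EPS 2 and EPS 3 then lay level with control 3. Within that sum, Ccn4 made up 1.97% (exact 95% Clopper-Pearson interval 1.51 to 2.52), 1.58% (1.19 to 2.05) and 1.30% (0.910 to 1.79) in controls. In EPS its share was 18.4% (16.1 to 20.9), 15.4% (14.0 to 16.8) and 7.98% (6.96 to 9.10). The share of Ccn4 was thus higher in every EPS library, and its mean rose from 1.62% ± 0.337 to 13.9% ± 5.37 (SD, n = 3; exact permutation p = 0.1, adjusted 0.25 over 5 members). The share of Ccn2 fell from 32.3% ± 2.14 to 24.6% ± 2.29 (SD, n = 3; exact permutation p = 0.1, adjusted 0.25). Shares of Ccn1, Ccn3 and Ccn5 overlapped between the groups. These intervals hold counting error within a library alone and not the spread between libraries. Reads copied by PCR are not separate molecules, and where such copies were counted the intervals are too narrow.

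**Figure D3:**
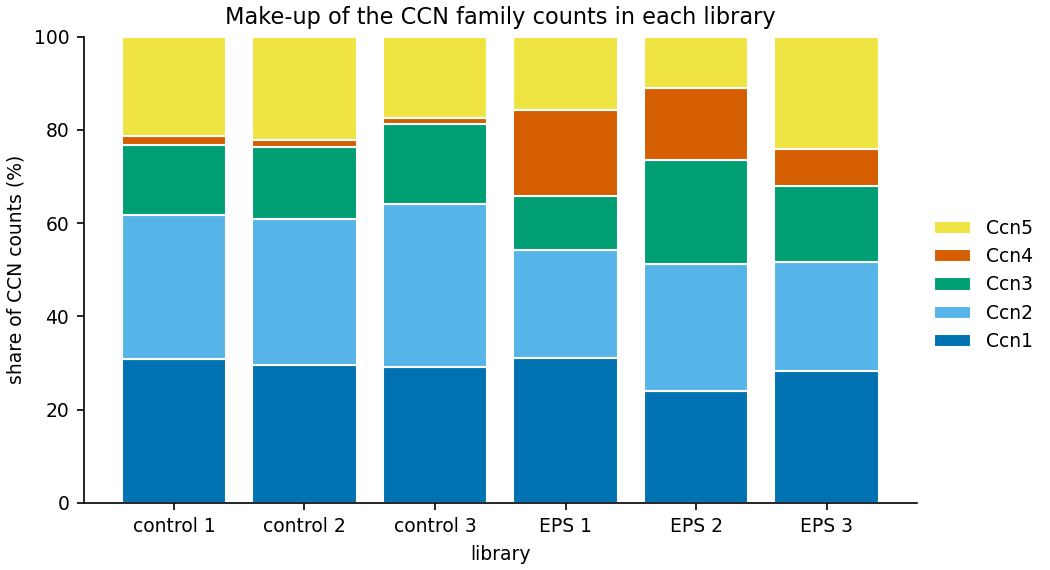
Share of all CCN reads (vertical axis, percent) held by each gene in each of the 6 libraries, as stacked bars that add up to the whole. The Ccn4 segment is a thin band of 1.30% to 1.97% in controls and spans 7.98% to 18.4% in EPS.

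Levels of different genes were compared per length, as CPM divided by the exon length in kilobases (RPKM). In controls the order was Ccn1 at 31.6 ± 4.32, Ccn2 at 23.9 ± 1.43, Ccn5 at 22.7 ± 5.22, Ccn3 at 11.7 ± 0.698 and Ccn4 at 0.626 ± 0.185 (SD, n = 3). Ccn2 and Ccn5 overlapped between libraries and did not differ beyond their spread, while the other neighbours in this order were apart. In EPS the order was Ccn1 at 14.7 ± 3.19, Ccn5 at 9.71 ± 5.30, Ccn2 at 9.49 ± 3.16, Ccn3 at 6.71 ± 3.47 and Ccn4 at 2.59 ± 0.858, and every pair of neighbours overlapped. Ccn4 was the lowest member in all 6 libraries despite its rise. By the longest transcript in place of all exons, Ccn1 and Ccn2 also overlapped in controls, and Ccn1 and Ccn5 were level in EPS 3 at 17.7. In EPS 1 Ccn4 came close to Ccn3, at 2.44 against 3.00 RPKM. Among all tested genes, the control level of Ccn4 in CPM was above 19.5% of genes and that of Ccn2 above 79.1%.

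**Figure D4:**
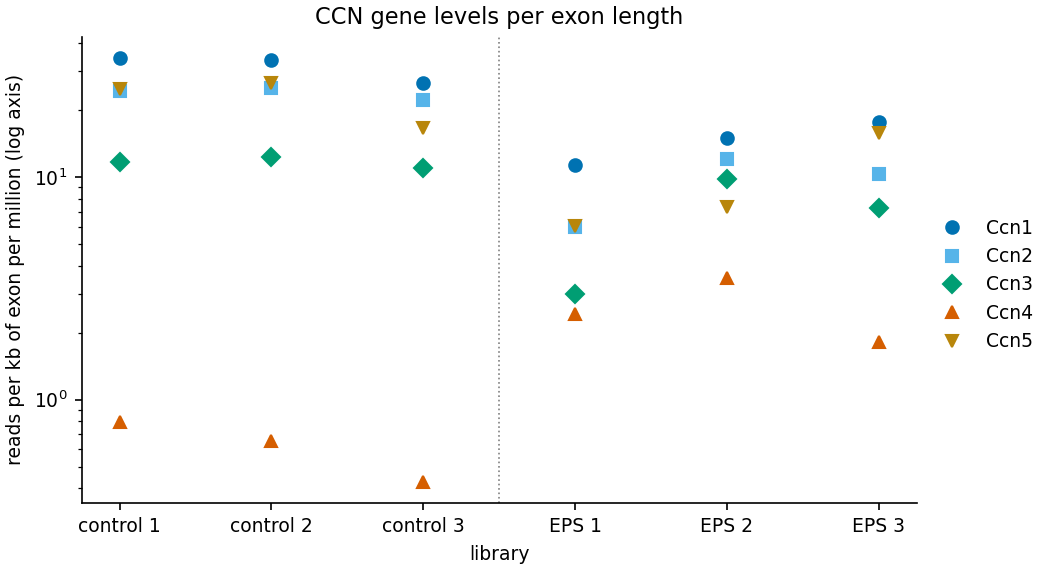
RPKM of each CCN gene (vertical log axis) in the 3 control and 3 EPS libraries. Ccn1 is highest and Ccn4 lowest in each library, and the distance between Ccn4 and the rest narrows from controls (0.428 to 0.796 for Ccn4) to EPS (1.82 to 3.51).

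Markers of other cell types moved with the same groups, in a comparison with 29.2% of all tested genes called higher and 30.4% lower. The summed CPM of 8 smooth muscle markers was 5125 to 5624 in controls and 1431, 3725 and 1272 in EPS 1 to 3; 6 of 8 fell, none was at 0 in a whole group, and Tagln was under 2 CPM in every library. The sum of 8 blood endothelial markers was 2048 to 2103 in controls and 827 to 1082 in EPS, and all 8 fell. The 8 adipocyte markers fell as well, from sums of 23880 to 24680 down to 2214 to 3788. Fibroblast markers summed to 1878 to 1936 in controls and to 3775, 5318 and 2939 in EPS. Of the 8, 4 were called higher and none lower. Much of the EPS sums was Col1a1, a fibrillar collagen chain, at 461 ± 34.6 CPM in controls and 1820, 3136 and 1745 in EPS 1 to 3. Pdgfra, Dcn, Postn and Dpt were not called (log2 fold change 0.04, 0.25, 0.59 and -0.52). Dcn stood at 826 to 899 CPM in controls and 1173, 1257 and 683 in EPS 1 to 3. These 4 genes were named after their values were seen, and their values under the alternatives are not given here. EPS 2, the library with the highest Ccn2, Ccn3 and Ccn4 among EPS, also had the highest EPS sums of smooth muscle, fibroblast, adipocyte and skeletal muscle markers. It did not have the highest EPS sum of blood endothelial or mesothelial markers. Skeletal muscle markers summed to 33.0 to 48.8 CPM in controls and to 8.66, 70.3 and 9.71 in EPS 1 to 3, with 3 of 6 higher, 1 lower and 2 not called. Most of the 70.3 was Acta1, named after its values were seen, at 60.5 CPM in EPS 2 against 0.762 and 2.18 in EPS 1 and EPS 3. The 3 higher genes were under 3 CPM in every library. The part of these cell types in the CCN values was not tested. Removing the 10 pancreas genes before scaling left the member values within 0.01 on the log2 scale. TMM scaling trims extreme genes, so this step could change little, and it does not take out other RNA particular to EPS 1. Without EPS 1 the log2 fold changes of Ccn1 to Ccn5 were -0.87, -1.02, -0.38, 2.15 and -0.89.

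Among genes of the YAP and TAZ pathway, the regulators of Ccn1 and Ccn2, 12 of 19 were lower in EPS, 2 were higher and 5 were not called (73.7% called, median log2 fold change -0.61). Over all tested genes 59.6% were called, 29.2% higher and 30.4% lower, with a median of -0.02. The coactivator genes themselves were lower. Yap1 stood at 94.7, 98.1 and 95.04 CPM in controls and 51.97, 59.1 and 49.5 in EPS (-0.84 ± 0.10; edgeR adjusted p = 1.93e-04), and Wwtr1, which encodes TAZ, fell by 1.42 ± 0.18 (adjusted p = 2.72e-04). Tead1, a DNA-binding partner, fell by 1.47 ± 0.24 (adjusted p = 0.00119). These 3 genes were named after their values were seen. Amotl1, an angiomotin that binds YAP, fell from 329 ± 11.4 to 85.8 ± 22.2 CPM. The 2 higher genes were Stk4, a Hippo kinase abundant in lymphocytes, which rose from 45.5 ± 5.64 to 197 ± 29.9 CPM, and its partner Mob1a, which rose by 1.02 ± 0.09. The list mixes activators and inhibitors of YAP, so its counts give no direction of pathway activity. Among the lower genes were also Nf2, Sav1, Lats2 and Stk3 of the inhibitory Hippo arm (-0.68, -0.81, -0.47 and -0.61). Lats1 and Mob1b were not called. These Hippo genes were named after their values were seen, and their values under the alternatives are not given here. With library totals, 5 were lower and 4 higher, and with controls 1 and 2 summed and EPS 1 left out, 2 were lower and Yap1, Wwtr1 and Tead1 no longer passed (adjusted p = 0.0724, 0.0550 and 0.0927). With library totals Yap1 did not pass either (adjusted p = 0.0875).

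The other known targets of YAP and TEAD were divided: 8 of 19 tested were lower, 5 higher and 6 not called (68.4% called against 59.6% of all tested genes, median -0.39). The lower genes included Amotl2, a YAP inhibitor and feedback target, with 307, 309 and 395 CPM in controls and 66.4, 66.0 and 82.7 in EPS. Dlc1 fell by 2.13 ± 0.13 and Ccdc80, a matrix protein of fat tissue, by 1.83 ± 0.18. F3, tissue factor, named after its values were seen, fell by 1.54 ± 0.15. The 5 higher genes were Nuak2, Nt5e, Dock5, Asap1 and Myof (log2 fold change 1.96, 0.79, 0.77, 0.70 and 0.62). They were also named after their values were seen, and their values under the alternatives are not given here. Ankrd1 was not analysed here. With controls 1 and 2 summed and EPS 1 left out, 2 were higher.

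Genes of TGF-beta and SRF signalling, the second route to Ccn2, held 8 of 18 that were higher, 4 lower and 6 not called (median 0.35). The 66.7% called is near the 59.6% of all tested genes, of which 29.2% were higher and 30.4% lower. Tgfb1, the cytokine, was at 68.1, 78.7 and 68.9 CPM in controls and 209, 218 and 285 in EPS, and so moved opposite to Ccn2 (1.72 ± 0.14; edgeR adjusted p = 2.73e-05). Mrtfa, an actin-regulated coactivator of SRF, rose by 1.69 ± 0.16 and Skil, a feedback repressor induced by TGF-beta, by 1.45 ± 0.19. With library totals 0 were lower, 2 were lower when any 1 control was left out or controls 1 and 2 were summed, and with controls 1 and 2 summed and EPS 1 left out 4 were higher and 1 lower.

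Of 12 tested Wnt and beta-catenin readout genes, the pathway after which Ccn4 and Ccn5 were first named, 3 were higher, 5 lower and 4 not called (66.7% called against 59.6% of all tested genes, median -0.30). The higher ones were led by the transcription factor genes Lef1, at 0.495 ± 0.145 CPM in controls and 60.1 ± 24.1 in EPS, and Tcf7, at 4.24 ± 0.178 and 226 ± 93.2 CPM. Both are also core factors of T cells. The other higher gene was Rnf43, at 0.334 ± 0.234 CPM in controls and 9.96 ± 3.40 in EPS. It was named after its values were seen, and its values under the alternatives are not given here. Nkd2, a Wnt feedback inhibitor, fell from 26.2 ± 0.446 to 6.99 ± 1.73 CPM. Members of this list therefore moved in both directions while Ccn4 rose. With library totals 3 were lower.

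**Figure D5:**
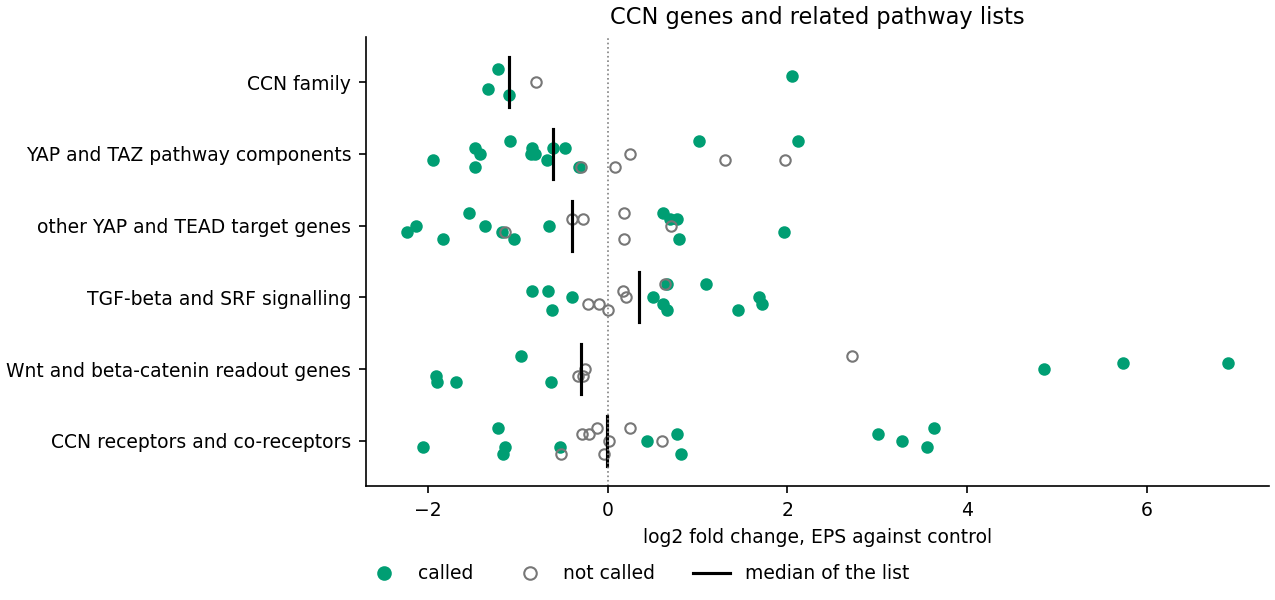
Log2 fold change of EPS against control (horizontal axis) for the tested genes of the CCN family and of 5 related lists, with filled points for called genes, open points for the rest and a black line at each median. YAP and TAZ components lie mostly below 0 (median -0.61), and the TGF-beta and SRF list has a median of 0.35.

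CCN proteins act through integrins and other receptors, and 7 of 20 such genes were higher, 5 lower and 8 not called (60% called against 59.6% of all tested genes, median -0.01). The integrin chains on white blood cells rose: Itgb2, at 29.1, 30.4 and 31.9 CPM in controls and 355, 355 and 421 in EPS (3.63 ± 0.12; edgeR adjusted p = 1.66e-06), and its partner Itgam, named after its values were seen, by 3.56 ± 0.37. Itga2b, the platelet integrin chain, rose by 3.01 ± 0.25. Of other integrin chains, Itgav and Itgb3 rose by 0.44 ± 0.13 and 0.82 ± 0.15, while Itgb5 fell by 1.15 ± 0.14 and Itga6 fell by 1.17 ± 0.10 (edgeR adjusted p = 3.13e-05). Itgb1 (-0.28, adjusted p = 0.0776), Itga5 (-0.12, 0.364) and Itgb8 (0.60, 0.258) were not called, though Itgb1 passed without EPS 2 (-0.35, 0.0414). These chains were named after their values were seen. Itgav no longer passed without control 2 (adjusted p = 0.0661), without control 3 (0.0629) or with controls 1 and 2 summed and EPS 1 left out (0.178). Gja1, connexin 43, a binding partner of Ccn3, had 179, 161 and 179.6 CPM in controls and 42.7, 41.1 and 41.6 in EPS, a fall of 2.05 ± 0.10. Notch1, another partner of Ccn3, fell by 0.53 ± 0.10, was named after its values were seen, and did not pass with library totals (adjusted p = 0.677) or with controls 1 and 2 summed and EPS 1 left out (0.113).

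Genes with the most similar pattern were ranked by Pearson r of log2 CPM over the 6 libraries, among 12005 genes. The points share the split between groups and the EPS 1 library, and the values are a description: 1965 genes had r over 0.9 with Ccn1, 1871 with Ccn2, 186 with Ccn3, 1580 with Ccn4 and 391 with Ccn5. Closest to Ccn4 was Vcan, which encodes the matrix proteoglycan versican (r = 0.997), followed by Kansl1 and Tmem67 (r = 0.997 and 0.996). Vcan had 17.1, 15.5 and 13.2 CPM in controls and 30.3, 39.5 and 27.6 in EPS, with the same order of libraries as Ccn4. Closest to Ccn2 was Sox18, an endothelial transcription factor gene (r = 0.998), with Nudcd3 and Dnajc24 next (r = 0.998 and 0.997). Nol6, St6galnac6 and Btd lay closest to Ccn1 (r = 0.9995, 0.998 and 0.998), Xpnpep2, Inpp5e and Gfra4 to Ccn3 (r = 0.997, 0.994 and 0.989), and Esyt1, Anapc7 and Gtf2e1 to Ccn5 (r = 0.998, 0.993 and 0.991). Fewer genes followed Ccn3 and Ccn5 than the other members.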

How the data were processed

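RNA was sequenced from peritoneum in 3 control and 3 EPS libraries. Per the labels, poly-A RNA was fragmented and copied with random primers, and no strand-marking step is named. The authors deposited raw counts of reads per gene symbol; the build was mm10, per the submitters' processing notes, and aligner, counter and annotation are not stated there. From these counts, edgeR 4.0.16 (R 4.3.3) with filterByExpr, TMM factors and a quasi-likelihood F-test was fitted to 13980 of 14943 genes, with no covariates and Benjamini-Hochberg adjustment, called under 0.05. CPM are on TMM-scaled library sizes. Exon lengths and gene positions are from GENCODE M21 (GRCm38). Scripts were tested on simulated data in which few genes changed, unlike these data, so the scaling between libraries was not tested there. Alternatives used RLE and upper-quartile factors, library totals, no filter, DESeq2 1.42.0, limma-voom 3.58.1, a replicate block, each library left out, controls 1 and 2 summed, pancreas genes removed, and, chosen after seeing the data, controls 1 and 2 summed with EPS 1 left out, the CCN sum on library totals, and coefficients of variation without EPS 1. Members and lists were chosen with earlier results of these data known. Named genes are all members, up to 3 called genes of lowest adjusted p in each list (or the 1 of lowest p), and the 3 genes of most similar pattern (log2 CPM with a prior count of 2, mean count at least 50, no predicted or clone-based symbols). Marker genes under this rule are given as sums of their lists, with Col1a1 by name. Some list members are not reported here by name.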

Additional observations from a re-analysis of the deposited data

How the results depend on the processing

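The directions of the 5 members held under all 16 alternatives, and Ccn2 and Ccn4 were called in each. Leaving out 1 library gave log2 fold changes of -1.25 to -0.87 for Ccn1, -1.54 to -1.02 for Ccn2, -1.18 to -0.38 for Ccn3, 1.77 to 2.25 for Ccn4 and -1.76 to -0.89 for Ccn5. Ccn1 lost its call with controls 1 and 2 summed and EPS 1 left out (-0.62), and Ccn3 gained one without EPS 2 (-1.18). Ccn5 lost its call with library totals (-0.75), with controls 1 and 2 summed (-1.14), with controls 1 and 2 summed and EPS 1 left out (-0.46), under the replicate block (-1.32), and without control 1 (-1.15), control 2 (-1.10), EPS 1 (-0.89) or EPS 2 (-1.04). The causes were not tested. With library totals the log2 fold change of the median gene shifted by 0.42, and there were 5657 higher and 2182 lower genes called (72.2% of calls higher, against 49.1% of 4088 and 4245). With controls 1 and 2 summed and EPS 1 left out, fewer samples gave 2093 and 1671, and of the CCN members 1 was lower.

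Deviations of same-numbered libraries from their group means correlated at 0.201, -0.0952 and 0.236. EPS 1 and EPS 3 correlated best with the control of their own number, and EPS 2 with control 3 (0.186). With 3 libraries a group, these values cannot decide whether replicate numbers pair the samples. The replicate block gave 3947 higher and 4166 lower genes.

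In the lists, library totals gave 4 higher and 5 lower YAP and TAZ components, 0 lower TGF-beta and SRF genes and 3 lower Wnt genes. Without EPS 3, 4 YAP and TAZ components were higher. The lower TGF-beta and SRF genes numbered 2 to 4 with 1 library left out, and 2 with controls 1 and 2 summed. With those summed and EPS 1 left out, 2 YAP and TAZ components were lower, 2 other YAP and TEAD targets higher, 4 TGF-beta and SRF genes higher and 1 lower, and 3 Wnt genes lower.

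The change in the share of Ccn2 and Ccn4 was -4.73 and 5.73 percentage points per exon length, against -7.70 and 12.3 by counts. With 1 library left out, the change in the share of Ccn3 ran from -1.80 to 3.51 points, and the log2 ratio differences from -0.18 to 0.48 for Ccn3 to Ccn1, -0.25 to 0.41 for Ccn5 to Ccn2 and -0.64 to 0.14 for Ccn5 to Ccn3, so that no direction is given for these. The control RPKM of Ccn2 was 27.5 by its longest transcript. Library totals turned the sign for St6galnac6 (0.21), Inpp5e (0.14), Esyt1 (0.015), Anapc7 (0.13), Gtf2e1 (0.28), Itgb1 (0.13) and Itga5 (0.32), and leaving out EPS 1 that of the pancreas gene Try5 (-2.15; leaving out 1 library gave -2.15 to 6.09). Itga5 ran from -0.17 to 0.024 with 1 library left out and was 0.095 with controls 1 and 2 summed and EPS 1 left out.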
